A study of Mus musculus with 8 samples.

Results

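Collagens are the main proteins of the extracellular matrix, and 42 collagen genes were read here among the 20807 protein-coding genes on chromosomes 1 to 19 of the GENCODE annotation of mm10. A gene was taken when its symbol was Col, a number for the collagen type, the letter a and a number for the chain, as in Col4a1, a rule that uses no measured value. The peak lists came from chromatin immunocleavage sequencing (ChIC-Seq), in which an antibody carries a nuclease to the chromatin that its antigen occupies, and the freed fragments are sequenced. BRG1 is the ATPase motor of SWI/SNF chromatin remodelers, and PBRM1 (BAF180) is a bromodomain subunit found in their PBAF form. Each was assayed in 3 replicates. All libraries came from primary uterine stromal cells of WT mice 8 to 12 weeks old on D4 of pregnancy, with 50000 cells and 5 minutes of fixation per library by the labels, where the methods of the study give other ranges for both. The protocol speaks of pseudopregnant animals, of several uterine horns digested together and of a few hours of plating before fixation, so that a replicate is no single animal, and no sorting of cells is described. The labels do not say whether the replicates were separate cultures, and the p-values below then measure only the spread between these libraries. The 2 IgG libraries were not analysed here.

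In the collagen family, fibrillar chains such as those of types I, III and V assemble into the banded fibrils that give tissue its tensile strength. Basement membrane collagens form or fasten the sheet below epithelia and around vessels, with type IV as its network and types XV and XVIII as proteoglycans that bridge it to the stroma. The remaining chains include the beaded filaments of type VI, fibril-associated collagens (FACIT), short-chain networks and transmembrane collagens. In the pregnant uterus the stroma rebuilds this matrix around the implanting embryo. By a fixed assignment, 11 members were fibrillar, 6 were basement membrane collagens and 25 were other collagens, among them 9 FACIT, 6 beaded filament, 4 transmembrane and 3 short-chain genes, Col7a1 of the anchoring fibril, and Col26a1 and Col28a1. Another 2 collagen genes on the X chromosome were outside the rule.

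Each deposited list holds peaks that the authors called at a q-value of 0.05 against the surrounding chromatin of the same library. The fold enrichment of a peak is its fragment pileup over that local background, and a gene without a peak in a list is a gene at which no peak was called, not one shown to lack the protein. Replicates held 8868777 to 16505239 fragments and 21912 to 40610 peaks, and the pooled lists, made from the same fragments and so no independent evidence, held 55119 PBRM1 and 82669 BRG1 peaks. PBRM1 replicate 3 was the deepest library and had the fewest peaks. Promoters of the stromal markers Vim, Pdgfra, Hand2, Hoxa10 and Nr2f2 had peaks in all 6 replicates, 5 of 5, where 53.5% of all protein-coding genes did. None of the 5 epithelial markers (Epcam, Krt8, Krt18, Krt19 and Cdh1) did, although all 5 had one in both pooled lists. Epcam, Krt8 and Cdh1 had one in all 3 BRG1 replicates, and the immune marker Ptprc had none in any list. For the endothelial markers Pecam1 and Cdh5 no promoter had a peak in all 6 replicates, and the same held for Acta2 and Myh11 of smooth muscle. Pecam1 and Myh11 had one in all 3 BRG1 replicates. A promoter peak is not expression, and the part of other cell types in the collagen peaks was not tested.

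The promoter sequences of some collagen genes are given first, because the results below turn on whether and where these stretches carried a peak. Of the 42 members, 33 matched a RefSeq promoter record (GRCm38.p6, 250 bases before to 50 after a start site), 36 records in all. Of these records, 29 overlapped a promoter peak of their own gene in at least 1 list. Capitals mark the CCAAT motif, the TATAAA motif and the GGGCGG motif on either strand, so that ATTGG in place of the first, TTTATA in place of the second and CCGCCC in place of the last are marked too, and each sequence runs 5′ to 3′ along the strand of its gene. Col25a1 (chr3:130180595-130180894, plus strand) held the promoter peak with the highest pooled fold enrichment of the family, Col4a4 (chr1:82586800-82587099, minus strand) and Col4a1 (chr8:11312777-11313076, minus strand) lie in the divergent promoters that they share with Col4a3 and Col4a2, and Col11a1 (chr3:114030290-114030589, plus strand) was a fibrillar gene with a peak in all 6 replicates. Col1a2 (chr6:4505368-4505667, plus strand) and Col3a1 (chr1:45311288-45311587, plus strand) encode chains of the major stromal fibrils, and Col6a2 (chr10:76623355-76623654, minus strand) encodes a chain of the beaded filament.
Col25a1 promoter: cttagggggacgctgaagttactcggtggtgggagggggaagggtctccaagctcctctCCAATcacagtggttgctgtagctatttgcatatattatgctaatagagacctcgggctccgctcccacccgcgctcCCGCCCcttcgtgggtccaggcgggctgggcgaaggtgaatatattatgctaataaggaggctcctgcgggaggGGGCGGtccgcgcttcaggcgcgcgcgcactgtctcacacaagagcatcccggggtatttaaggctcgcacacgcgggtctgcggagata
Col4a4 promoter: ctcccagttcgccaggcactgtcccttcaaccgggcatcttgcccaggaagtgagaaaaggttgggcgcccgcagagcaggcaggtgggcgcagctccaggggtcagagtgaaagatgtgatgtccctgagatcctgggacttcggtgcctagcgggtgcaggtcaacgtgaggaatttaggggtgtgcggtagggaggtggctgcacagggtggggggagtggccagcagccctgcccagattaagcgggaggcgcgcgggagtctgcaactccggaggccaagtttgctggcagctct
Col4a1 promoter: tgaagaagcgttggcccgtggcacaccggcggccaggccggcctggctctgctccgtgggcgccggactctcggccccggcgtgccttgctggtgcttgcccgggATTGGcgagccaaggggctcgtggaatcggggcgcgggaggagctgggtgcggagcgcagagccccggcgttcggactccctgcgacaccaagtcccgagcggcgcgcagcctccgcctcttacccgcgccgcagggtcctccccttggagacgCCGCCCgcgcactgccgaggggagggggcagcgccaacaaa
Col11a1 promoter: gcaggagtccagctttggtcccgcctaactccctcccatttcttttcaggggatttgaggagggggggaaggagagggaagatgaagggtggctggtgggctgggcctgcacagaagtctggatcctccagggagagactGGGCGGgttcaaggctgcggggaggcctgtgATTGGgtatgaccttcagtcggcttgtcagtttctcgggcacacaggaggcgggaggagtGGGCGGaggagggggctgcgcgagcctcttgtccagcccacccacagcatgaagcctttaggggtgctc
Col1a2 promoter: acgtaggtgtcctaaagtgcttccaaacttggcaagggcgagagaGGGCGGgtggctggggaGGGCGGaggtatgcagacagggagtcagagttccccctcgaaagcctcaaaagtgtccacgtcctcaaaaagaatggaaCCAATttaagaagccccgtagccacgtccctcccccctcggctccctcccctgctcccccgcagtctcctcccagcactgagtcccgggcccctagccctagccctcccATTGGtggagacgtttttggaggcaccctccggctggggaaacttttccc
Col3a1 promoter: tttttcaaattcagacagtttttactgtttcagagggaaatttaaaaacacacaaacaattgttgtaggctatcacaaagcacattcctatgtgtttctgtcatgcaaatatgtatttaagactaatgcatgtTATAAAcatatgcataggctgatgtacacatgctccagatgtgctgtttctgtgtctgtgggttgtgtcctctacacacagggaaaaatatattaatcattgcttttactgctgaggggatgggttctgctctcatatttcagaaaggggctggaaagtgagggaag
Col6a2 promoter: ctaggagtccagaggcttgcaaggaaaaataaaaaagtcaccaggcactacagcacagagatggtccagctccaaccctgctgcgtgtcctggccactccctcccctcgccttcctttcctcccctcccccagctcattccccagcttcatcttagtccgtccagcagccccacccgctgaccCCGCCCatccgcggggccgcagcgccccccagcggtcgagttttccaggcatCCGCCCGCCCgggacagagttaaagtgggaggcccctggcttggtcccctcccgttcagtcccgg

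GGGCGG, the core of the GC box, was in 21 of the 36 member records (58.3%) against 36.0% of all 31396 records on these chromosomes. CCAAT was in 12 (33.3%) against 37.3% of all, and TATAAA in 5 (13.9%) against 13.6%. Matches to different motifs can overlap. These letters describe the stretches and are no evidence that a factor binds there. Col3a1 was the only printed promoter with TATAAA, and Col4a4 held none of the 3 motifs.

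To learn how many collagen genes carried the complex at a promoter, peaks within 2000 bp of any annotated start site of a gene were counted in each list. Nearly the whole family had a promoter peak in the pooled lists, with 36 of 42 members in PBRM1 (85.7%, against 70.2% of all protein-coding genes) and 39 in BRG1 (92.9% against 73.7%). Both pooled lists had one at 35 members (83.3% against 69.3%). These included all 11 fibrillar and all 6 basement membrane genes, and 18 of the 25 others. Members had from 1 to 13 annotated start sites each, and this number was not compared with that of all genes. At the 5′ end of the gene alone, 34 members had a pooled PBRM1 peak and 37 a pooled BRG1 peak. No share over all genes is given for that rule. The 3 PBRM1 replicates held a peak at 26, 28 and 16 members (61.9%, 66.7% and 38.1%), where the backgrounds were 61.6%, 62.2% and 56.9% of all genes. The 3 BRG1 replicates held one at 32, 32 and 31 members (76.2%, 76.2% and 73.8%) against 67.7%, 66.6% and 66.6%. Every BRG1 replicate had more members than every PBRM1 replicate. The mean was 23.3 ± 6.43 members for PBRM1 and 31.7 ± 0.577 for BRG1 (SD, n = 3), a difference of −8.33 (PBRM1 minus BRG1), which was −4.67 without PBRM1 replicate 3. By exact permutation of the libraries, two-sided, p was 0.1, and 3 against 3 libraries allow none smaller. Adjusted by the Benjamini-Hochberg method over 5 such comparisons, this permutation p was 0.167. Among the 10000 strongest peaks of each list the order turned, with a mean of 7.33 members for PBRM1 and 5 for BRG1 (exact permutation p = 0.6). No share over all protein-coding genes is given for these strongest peaks, so the turn may not be particular to collagen genes. BRG1 lists were longer than PBRM1 lists, and the part of list length was not tested.

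**Figure D1:**
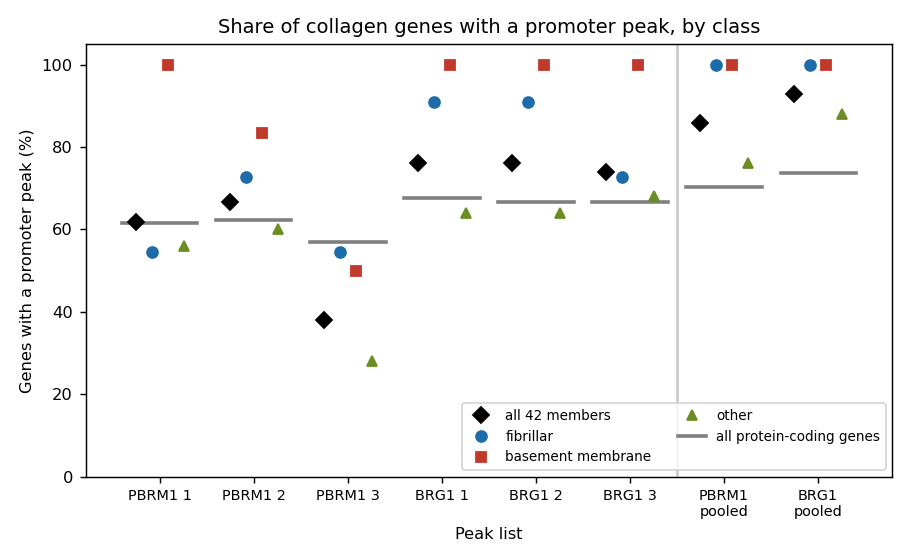
Percent of genes with a promoter peak (vertical axis) in each of the 8 peak lists (horizontal axis), for all 42 members (black diamonds) and for each class (colored symbols), with a grey line at the percent of all protein-coding genes. The members sit at 38.1% in PBRM1 replicate 3, below the grey line at 56.9%, and at 92.9% in the pooled BRG1 list, above the line at 73.7%.

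PBRM1 replicate 3 stood apart at these genes. Only 11 members, 26.2%, had a promoter peak in all 6 replicates, against 53.5% of all protein-coding genes, whereas without that library 23 members did (54.8%, against 57.6% of all). Of the 23 members with a peak in PBRM1 replicates 1 and 2, 11 had one in replicate 3 (47.8%), while over all protein-coding genes 91.9% did. Members retained in replicate 3 had a median fold enrichment of 6.37 in the first and second replicates and members not retained had 4.98. Over all genes these medians were 7.59 and 5.16. Where they had a promoter peak, members were weaker than the usual promoter in each list, for example with a median of 5.66 against 7.57 in PBRM1 replicate 1 and 5.48 against 8.11 in BRG1 replicate 1. The cause was not tested. All 3 PBRM1 replicates had a peak at the same 11 members (53.8% of all genes), and all 3 BRG1 replicates at 27 (64.3%, against 62.9%). No member had a promoter peak in all 3 BRG1 replicates and in no PBRM1 replicate, a pattern that 1.05% of all genes showed.

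The members with a promoter peak in all 6 replicates were Col11a1 and Col27a1 among fibrillar genes, Col4a3, Col4a4 and Col18a1 among basement membrane genes, and Col8a1, Col9a2, Col12a1, Col13a1, Col16a1 and Col25a1 among the others. At the other end, only Col9a1 and Col10a1, cartilage collagens of the FACIT and short-chain types, had no promoter peak in any of the 8 lists (4.76%, against 24.8% of all genes). Col10a1, which marks hypertrophic cartilage, had no intronic peak either and was the only member without any peak. CpG content was read at the annotated 5′ end of each gene alone, while peaks were counted at any of its starts. The CpG class therefore need not describe the start with the peak. Col18a1 and Col25a1, for example, were CpG-poor by this rule, but their strongest pooled peaks lay at internal starts. Such a 5′ end counted as a CpG-rich start when its 300 bases held at least 0.6 of the CpG pairs that its base composition predicts. Such starts belonged to 12 members, all with a peak in both pooled lists. The other 30 members had CpG-poor starts, and 24 of them had a PBRM1 and 27 a BRG1 pooled peak (80.0% and 90.0%). Over all protein-coding genes the pooled shares were 96.3% and 97.8% of CpG-rich starts, and 43.8% and 49.2% of CpG-poor starts. In all 6 replicates, 4 of the 12 CpG-rich members had a peak (33.3%), where 82.5% of all CpG-rich genes did. CpG-poor members, at 7 of 30 (23.3%), were near the 24.1% of all CpG-poor genes.

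To follow single places rather than genes, promoter peaks that overlap between lists were merged into sites, which gave 93 places at 40 members, 2 of them shared by a pair of type IV genes. A wide pooled peak can join replicate peaks that do not overlap each other, so a site need not be 1 shared peak. At Col8a1 the PBRM1 replicate 3 summit lay at −54 bp, and the strongest BRG1 replicate summits lay at −591, −611 and −593 bp. The summit lay within 2000 bp of the 5′ end of the gene at 54 places, farther inside the gene at 38 and just beyond 2000 bp upstream at 1, in Col16a1. At 28 of the 93 the summit was more than 2000 bp from the start of any coding transcript, so that these places need not be promoters of a coding transcript. The main site of a gene was the one found in most lists, with the pooled BRG1 fold enrichment deciding ties, and it lay at the 5′ end for 33 of the 40. In 7 genes it was internal, namely Col6a4, Col8a2, Col13a1, Col18a1, Col25a1, Col26a1 and Col28a1, and for Col6a4, Col26a1 and Col28a1 it was away from coding starts. For Col18a1 the internal site and the 5′ site were in the same number of lists. All 3 BRG1 replicates shared 33 places, 2 of which had no PBRM1 replicate, and no place had all 3 PBRM1 replicates and no BRG1 replicate. Counts of such places are not given here for other genes.

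**Figure D2:**
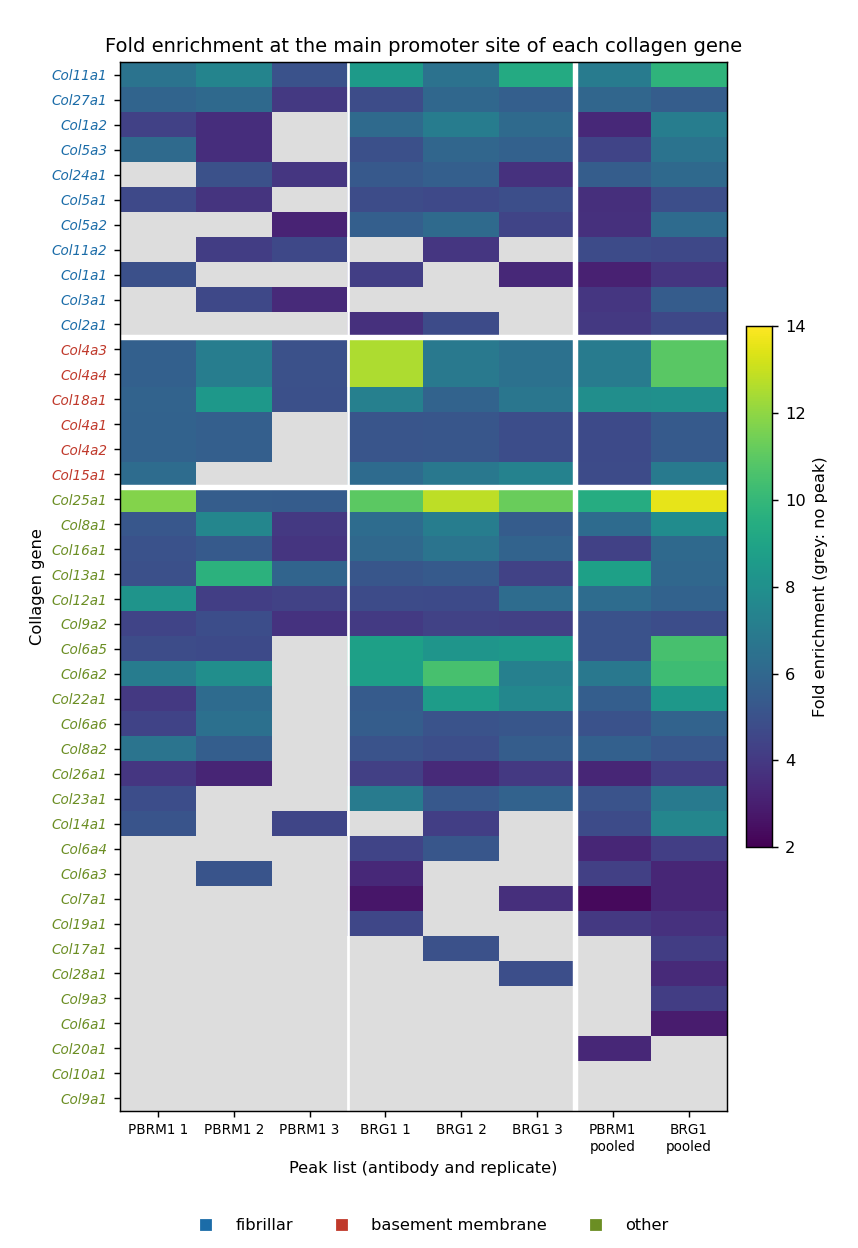
Fold enrichment (color) at the main promoter site of each collagen gene (rows, by class) in the 6 replicate and 2 pooled lists (columns); grey cells had no peak. Col25a1 has the highest pooled values, 9.42 for PBRM1 and 13.6 for BRG1, and the column of PBRM1 replicate 3 is grey at many genes with color in both other PBRM1 replicates.

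Among fibrillar genes, the chains of the major stromal fibrils had promoter peaks in some replicates only, each below the median promoter peak of all genes in its list. Col1a1, the alpha 1 chain of type I collagen, carried a site over its start (chr11:94935968-94936322, summit at −64 bp). Its fold enrichment was 4.91 in PBRM1 replicate 1, 4.23 in BRG1 replicate 1 and 3.38 in BRG1 replicate 3, with no peak in the other replicates. A neighboring site 0.948 kb into the gene was found in all 3 BRG1 replicates, at 3.44, 3.48 and 3.90, and in no PBRM1 replicate. At Col1a2, the partner chain, a site across the start (chr6:4505168-4505899) had 4.32 and 3.59 in PBRM1 replicates 1 and 2, no peak in replicate 3, and 6.15, 7.04 and 6.16 in BRG1. This site covers the Col1a2 promoter printed above, with its pair of GGGCGG and pair of CCAAT matches. The BRG1 values were close together (6.45 ± 0.512, SD, n = 3).

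Col3a1, the type III chain found beside type I in extensible tissue, had peaks in other replicates. Its start site (chr1:45310961-45311886) had a peak of 4.61 and 3.45 in PBRM1 replicates 2 and 3 and none in any BRG1 replicate, while the pooled BRG1 list gave 5.51. Col5a2, its neighbor on chromosome 1 and a chain of the type V collagen that nucleates fibrils, had 5.61, 6.13 and 4.44 in the BRG1 replicates and a single PBRM1 peak of 3.19 in replicate 3. Col5a1, the other type V chain, had 4.63 and 3.80 in PBRM1 replicates 1 and 2, no peak in replicate 3, and 4.81, 4.67 and 4.89 in BRG1. Thus none of these 5 genes had a peak at its main site in all 6 replicates.

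Col11a1, a minor fibrillar chain that sets fibril width, had the highest pooled fold enrichment at a main promoter site in its class for both antibodies. At chr3:114030056-114030934, with its summit at −20 bp from the start, its fold enrichment was 6.58, 7.39 and 5.02 in PBRM1 and 8.54, 6.53 and 9.31 in BRG1. Ranges of the antibodies overlapped as numbers, but fold enrichments of different antibodies are not on the same scale. The summit fell inside the printed Col11a1 promoter, which held GGGCGG at 2 places and ATTGG at 1. Col27a1, a fibrillar collagen of cartilage and other tissues, was the other member of its class with 6 of 6, at 5.89, 6.10 and 3.98 in PBRM1 and 4.79, 6.03 and 5.63 in BRG1, 1.48 kb from the gene start. Of the remaining fibrillar genes, Col5a3 lacked only PBRM1 replicate 3 and Col24a1 only PBRM1 replicate 1 at their main sites. Within the merged Col24a1 site, the strongest replicate peaks of PBRM1 did not overlap those of BRG1. Col2a1, the cartilage fibril chain, and Col11a2 had fewer, with 2 BRG1 replicates for Col2a1, and 2 PBRM1 and 1 BRG1 replicate for Col11a2.

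In the basement membrane class each of the 6 genes had a promoter peak in all 3 BRG1 replicates, where 8 of 11 fibrillar genes (72.7%), 13 of 25 other collagens (52.0%) and 62.9% of all protein-coding genes did. These 6 genes stand for 4 promoters, since the type IV genes lie head to head in pairs. Col4a1 and Col4a2, the ubiquitous type IV chains, share a site at chr8:11311922-11314035 with 5.75 and 5.64 in PBRM1 replicates 1 and 2, no peak in replicate 3, and 5.17, 5.21 and 4.86 in BRG1. The values of the 5 libraries lay close together. Col4a3 and Col4a4, chains of the specialized type IV network of kidney and lung, share a site at chr1:82586452-82587474 with 5.66, 7.08 and 5.00 in PBRM1 and 12.5, 6.87 and 6.48 in BRG1. BRG1 replicate 1 was highest there, and the other BRG1 replicates fell within the PBRM1 range, as numbers that are not on a common scale. None of the 3 searched motifs lay in the Col4a4 promoter.

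Col18a1, whose product releases the fragment endostatin, had promoter sites at its 5′ end and at internal starts. The site 0.846 kb from its 5′ end had 6.61, 6.26 and 4.11 in PBRM1 and 5.47, 5.20 and 5.82 in BRG1. At 76.8 kb into the gene a start site of a coding transcript (chr10:77089390-77089952) had 5.82, 8.38 and 4.92 in PBRM1 and 7.24, 5.80 and 6.69 in BRG1. Both sites were thus found in all 6 replicates. Another site at 52.5 kb was less regular, with peaks of 5.71 in PBRM1 replicate 2 and of 6.47 and 7.39 in BRG1 replicates 1 and 2. Col15a1, the related proteoglycan, had a peak at its start of 6.22 in PBRM1 replicate 1, none in replicates 2 and 3, and 6.19, 6.81 and 7.31 in BRG1.

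Among the other collagens, the type VI genes differed from each other. Col6a1, Col6a2 and Col6a3 encode the classic chains of the beaded filament, and Col6a1 had no promoter peak in any replicate, only 2.90 in the pooled BRG1 list. Col6a2 (chr10:76623157-76623619), by contrast, had 7.05 and 7.95 in PBRM1 replicates 1 and 2, no peak in replicate 3, and 8.77, 10.5 and 7.23 in BRG1. Its printed promoter, which this site covers in part, held CCGCCC at 3 places, of which 2 overlap. Col6a3 had peaks in PBRM1 replicate 2 (5.12) and BRG1 replicate 1 (3.37) alone. For the later chains Col6a5 and Col6a6, all 3 BRG1 replicates and PBRM1 replicates 1 and 2 had a peak, with 8.83, 8.27 and 8.38 in BRG1 at Col6a5.

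Col25a1, a transmembrane collagen of neurons and developing muscle, had the highest pooled fold enrichment of all promoter sites found in 6 of 6 replicates. The site (chr3:130180362-130181604) lay 49.2 kb from the annotated 5′ end, with its summit at −178 bp from the start of a coding transcript, and over the printed Col25a1 promoter. Its values were 11.8, 5.52 and 5.48 in PBRM1 and 10.96, 12.8 and 11.3 in BRG1. PBRM1 replicate 1 alone reached the BRG1 range, although the antibodies are not on a common scale. Col13a1, another transmembrane collagen, was second by the pooled PBRM1 value, at an internal start 113 kb into the gene, with 4.92, 9.73 and 5.85 in PBRM1 and 5.22, 5.40 and 4.38 in BRG1. At its 5′ end only PBRM1 replicate 1 (5.83) and the 3 BRG1 replicates (5.00, 5.07 and 5.06) had a peak. The remaining genes with 6 of 6 were Col8a1 and Col16a1, which ranged from 3.84 to 7.52 over their replicates, Col12a1, from 4.24 to 8.21, and Col9a2, from 3.76 to 4.85.

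By class, the mean share of genes with a promoter peak was 60.6% ± 10.5 for PBRM1 and 84.8% ± 10.5 for BRG1 in fibrillar collagens (SD, n = 3; exact permutation p = 0.2, adjusted p = 0.25). In basement membrane collagens the shares were 77.8% ± 25.5 and 100% ± 0 (SD, n = 3; exact permutation p = 0.4, adjusted p = 0.4). Other collagens had 48.0% ± 17.4 and 65.3% ± 2.31 (SD, n = 3; exact permutation p = 0.1, adjusted p = 0.167). Over all protein-coding genes the means were 60.3% ± 2.89 for PBRM1 and 66.9% ± 0.619 for BRG1. At a −log10 q cutoff of 5, the PBRM1 share was 33.3% for fibrillar, 26.7% for other and 77.8% ± 25.5 (SD, n = 3) for basement membrane collagens. The BRG1 shares were then 66.7%, 49.3% and 100%. No share over all protein-coding genes is given at this cutoff. Class shares were not tested against each other, as their genes are few and some share a promoter. Within the others, all 3 BRG1 replicates had a promoter peak at 4 of 9 FACIT, 3 of 6 type VI, 3 of 4 transmembrane and 2 of 3 short-chain genes, beside 62.9% of all protein-coding genes.

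To see how the bodies of these long genes were occupied, intronic peaks were counted, with a summit in an intron and the whole peak more than 2000 bp from any start site of any gene. Collagen introns held more peaks per length than those of other genes. The replicates had 20, 44 and 31 such peaks for PBRM1 and 78, 72 and 71 for BRG1, and the ranges of the antibodies did not overlap. The means were 31.7 ± 12.0 and 73.7 ± 3.79 (SD, n = 3), a difference of −42 peaks (exact permutation p = 0.1, adjusted p = 0.167). Among the 10000 strongest peaks of each list almost none were intronic in collagen genes, a mean of 1.33 for PBRM1 and 1.67 for BRG1. No value over all protein-coding genes is given for these strongest peaks. Per 100 kb of such intron, members had 0.778 ± 0.295 PBRM1 and 1.81 ± 0.0930 BRG1 peaks, against 0.435 ± 0.0825 and 0.990 ± 0.0986 over all protein-coding genes (SD, n = 3). In each of the 6 replicates the members' density was the higher one, for example 0.491 against 0.364 in PBRM1 replicate 1 and 1.92 against 1.10 in BRG1 replicate 1. Over all protein-coding genes BRG1 density was also above PBRM1 density, so the higher BRG1 count is not particular to collagen introns. Without Col23a1, Col18a1 and Col14a1, left out after their values were seen because they had the most pooled BRG1 peaks, the members still had 1.45 to 1.60 in the BRG1 replicates. Intronic peaks reached 25 of 42 members in the pooled PBRM1 list (59.5%, against 23.8% of all genes) and 33 in the pooled BRG1 list (78.6%, against 30.2%). Gene length differs between these sets, with a median of 86.7 kb of such intron in members and 8.75 kb over all genes, so that the shares are not like for like.

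**Figure D3:**
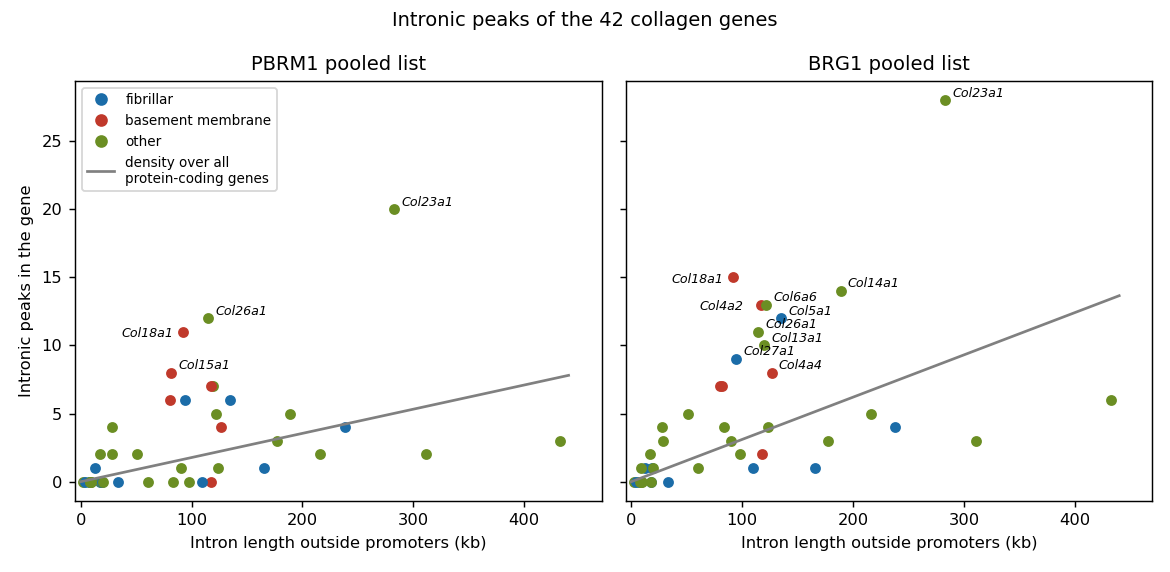
Number of intronic peaks (vertical axis) against the length of intron outside promoters in kb (horizontal axis) for the 42 collagen genes, colored by class, in the pooled PBRM1 list (left) and the pooled BRG1 list (right); the line is the density over all protein-coding genes. Col23a1 lies highest with 20 and 28 peaks, and Col25a1, the longest, lies below the line with 3 and 6.

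By class, basement membrane genes had the densest introns. They had 3.63 ± 0.409 BRG1 peaks per 100 kb, fibrillar genes 1.28 ± 0.183 and others 1.55 ± 0.0220 (SD, n = 3). For PBRM1 the values were 1.84 ± 0.895, 0.638 ± 0.183 and 0.572 ± 0.232, and at a −log10 q cutoff of 5 they were 0.434 ± 0.338, 0.239 ± 0 and 0.191 ± 0.175. The order of the classes was not tested, but basement membrane genes as a class were highest in every replicate, at 4.06, 3.25 and 3.58 in BRG1. In the pooled BRG1 list, Col18a1 had 15 of these peaks, Col4a2 had 13, Col4a4 had 8, Col4a1 and Col15a1 had 7 each, and Col4a3 had 2. Among fibrillar genes, Col5a1 had 12 and Col27a1 had 9, while the short type I and III genes had at most 1 each. Col23a1, a transmembrane collagen, had 2, 7 and 3 intronic peaks in PBRM1 and 13, 11 and 11 in BRG1. Single genes did not all follow the class values. Col6a6, of the other class, had 13 pooled BRG1 peaks in 122 kb of such intron, and Col4a2 had 13 in 117 kb. Col4a3, of the basement membrane class, had 2 in 117 kb. Long genes could also hold few peaks. Col25a1, with 433 kb of such intron, had 6 pooled BRG1 peaks, and Col19a1, with 311 kb, had 3.

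Few of these places recurred in every library. Merged over the 8 lists, the peaks made 246 intronic sites, of which 101 appeared in a pooled list alone, 28 in all 3 BRG1 replicates, 8 in all 3 PBRM1 replicates and 6 in all 6. The 6 were in Col4a1, Col4a2, Col15a1, Col27a1, Col6a5 and Col6a6, so 3 of them were in basement membrane genes. Of the 28 sites in all 3 BRG1 replicates, 9 lay in 5 basement membrane genes, 3 in 3 fibrillar genes and 16 in 9 others. In a first intron there were 3 of them. Counts of such sites are not given here for the introns of other genes, so their recurrence has no background to be set against. No site had all 3 PBRM1 replicates and no BRG1 replicate. These sites are shown by distance from the gene start in the map of peak sites along collagen genes.

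**Figure D4:**
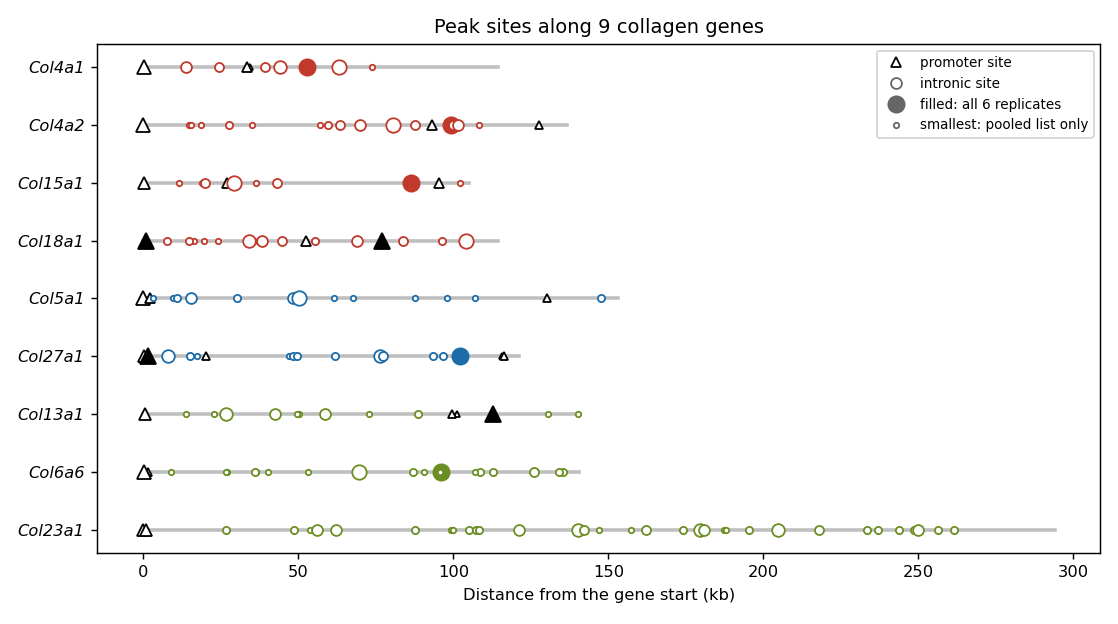
Promoter sites (triangles) and intronic sites (circles) along 9 collagen genes, by distance from the gene start in kb; symbol size grows with the number of replicates with a peak, and filled symbols had a peak in all 6, and the grey line is the gene. The filled circle of Col4a1 lies at 52.8 kb and that of Col4a2 at 99.2 kb, and Col18a1 has filled triangles at 0.846 and 76.8 kb.

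The sequences around 3 of the recurrent intronic summits are printed as 300 bases of the plus strand of GRCm38.p6, with matches to TGANTCA (AP-1, where N is any base) and GGAATG (TEAD) on either strand in capitals. Col4a1 (chr8:11259828-11260127) and Col27a1 (chr4:63316006-63316305) are shown as recurrent sites that hold the first motif, and Col6a5 (chr9:105871731-105872030) as the strongest, which holds neither.
Col4a1 intron 2 site: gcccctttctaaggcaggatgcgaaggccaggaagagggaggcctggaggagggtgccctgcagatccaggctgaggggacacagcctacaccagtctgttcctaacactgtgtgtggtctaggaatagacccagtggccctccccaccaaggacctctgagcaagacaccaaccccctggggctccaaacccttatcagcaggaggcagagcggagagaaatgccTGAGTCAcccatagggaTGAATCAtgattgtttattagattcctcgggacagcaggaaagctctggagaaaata
Col27a1 intron 41 site: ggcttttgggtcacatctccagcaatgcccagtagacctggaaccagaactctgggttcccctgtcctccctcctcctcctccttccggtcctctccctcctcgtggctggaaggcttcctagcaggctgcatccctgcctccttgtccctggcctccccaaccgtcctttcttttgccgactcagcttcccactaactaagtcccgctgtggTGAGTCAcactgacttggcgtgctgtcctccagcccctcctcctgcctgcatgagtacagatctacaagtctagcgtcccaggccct
Col6a5 intron 37 site: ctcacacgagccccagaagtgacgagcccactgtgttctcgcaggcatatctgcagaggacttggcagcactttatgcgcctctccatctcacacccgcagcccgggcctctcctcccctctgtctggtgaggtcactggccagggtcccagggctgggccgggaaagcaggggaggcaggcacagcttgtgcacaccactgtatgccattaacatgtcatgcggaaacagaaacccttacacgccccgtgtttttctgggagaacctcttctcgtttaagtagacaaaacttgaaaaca

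TGANTCA was in 35 of the 204 windows around pooled BRG1 intronic summits of members (17.2%) and in 14.8% of the 24200 such windows over all protein-coding genes. GGAATG was in 41 (20.1%) and in 16.8%, and matches to these motifs can overlap. The Col4a1 window held TGANTCA at 2 places, as TGAGTCA and TGAATCA, and the Col27a1 window at 1. The windows of the other recurrent sites, in Col6a5 and, not printed, in Col6a6, Col15a1 and Col4a2, held neither motif.

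Col6a5 had the strongest intronic site found in all 6 replicates. It lay in intron 37 of 40, 88.8 kb from the gene start (chr9:105871640-105872183), with 6.51, 5.37 and 3.44 in PBRM1 and 7.36, 7.84 and 10.1 in BRG1. All BRG1 values were above all PBRM1 values, but fold enrichments of different antibodies are not on the same scale. Its neighbor Col6a6 had a site in intron 24 of 36 (chr9:105731891-105732398) with 4.70, 5.81 and 3.94 in PBRM1 and 5.07, 7.23 and 6.04 in BRG1.

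The Col4a1 site, in intron 2 of 51 and 52.8 kb from the start (chr8:11259562-11260527), had 4.74, 6.00 and 4.78 in PBRM1 and 6.61, 6.16 and 6.83 in BRG1. It was stronger in BRG1 than the promoter that Col4a1 shares with Col4a2, at 6.53 ± 0.340 against 5.08 ± 0.195 (SD, n = 3). That promoter had no peak in PBRM1 replicate 3. The intronic site was named for a peak in all 6 replicates, so its peak in that library was given by the choice. In each of the BRG1 replicates the intronic value was the higher one. Col4a2 had a weaker site in intron 16 of 47 (chr8:11411626-11412160), with 3.75, 4.22 and 3.53 in PBRM1 and 4.33, 4.55 and 4.17 in BRG1. Col15a1 had a site in intron 28 of 39 (chr4:47293721-47294533), chosen by the same rule, with 4.74, 4.49 and 3.05 in PBRM1 and 4.74, 5.59 and 5.12 in BRG1. Its start had a single PBRM1 peak, of 6.22 in replicate 1. In each BRG1 replicate the start was the stronger place, at 6.19, 6.81 and 7.31. In Col27a1 the site in intron 41 of 60 (chr4:63315863-63316750) had nearly the same values for both antibodies, 4.96 ± 0.402 for PBRM1 and 5.00 ± 0.404 for BRG1 (SD, n = 3). Since the antibodies are not on a common scale, this does not show equal occupancy.

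A single intronic site had a peak in all 3 BRG1 replicates and in no PBRM1 list. It lay in intron 5 of 28 of Col23a1 (chr11:51539682-51539939), with 5.52, 5.08 and 4.16. Counting replicate lists alone, 5 sites had 3 BRG1 and no PBRM1 replicates, and 4 of these had a peak in the pooled PBRM1 list. No share over the introns of all genes is given for either count.

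**Figure D5:**
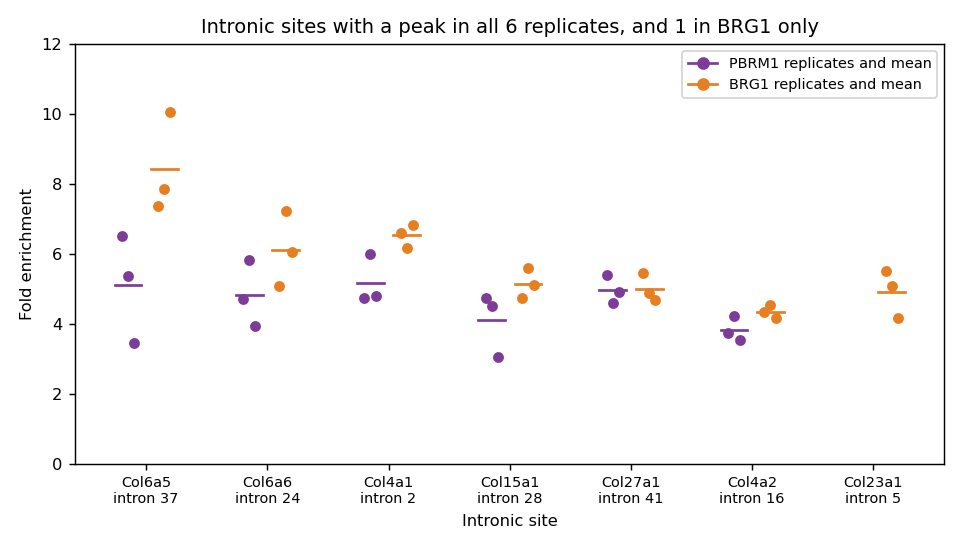
Fold enrichment (vertical axis) at the 6 intronic sites with a peak in all 6 replicates and at the Col23a1 site found in BRG1 alone (horizontal axis); points are replicates, by antibody, and short lines are their means. The Col6a5 site spans 7.36 to 10.1 in BRG1 and 3.44 to 6.51 in PBRM1.

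Collagen chains need dedicated enzymes before they leave the cell, and the genes for these and for the later fate of collagen were read in the same way. Of 17 genes for chain-modifying enzymes and chaperones, 13 had a promoter peak in all 6 replicates. Among them were P4hb, a subunit of the prolyl hydroxylase (12.1 ± 1.32 for PBRM1 and 11.7 ± 1.08 for BRG1, SD, n = 3), and Ppib, a prolyl isomerase (10.4 ± 0.934 and 13.1 ± 0.623). Serpinh1, which encodes the collagen chaperone HSP47, had a weaker peak at 3.40 and 2.76 in PBRM1 replicates 1 and 2, none in replicate 3, and 4.06, 4.88 and 4.56 in BRG1. For extracellular maturation, 8 of 14 genes had 6 of 6, among them Lox, which crosslinks the fibrils, at 5.37 ± 1.15 and 4.98 ± 0.913, and Loxl2 had no peak in any list. Of 8 collagen receptor genes, 6 had 6 of 6, including Itgb1 (6.74 ± 2.00 and 7.41 ± 0.176) and Ddr2 (5.17 ± 1.27 and 4.70 ± 0.281), while Gp6, a platelet receptor, had none. These shares stand beside the 53.5% of all genes and the 26.2% of the collagen genes given above, and no test was run between the lists.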

How the data were processed

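ChIC-Seq libraries for PBRM1 and BRG1 (3 replicates each) were grouped by antibody from their labels. According to the methods, the authors trimmed reads, aligned them to mm10 with Bowtie2 (GRCm38.p5 per the submitters' processing notes), removed duplicates and called peaks with MACS 2.2.7.1 per replicate and on pooled fragments. Per the file headers, no control was used, the q-value cutoff was 0.05 and the regional background was 10000 bp. For every peak the authors deposited its pileup signal, its fold enrichment and its −log10 q-value. Fragment counts limit which weak sites are called, and antibodies are not on a common scale, so their fold enrichments were not tested against each other.

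Peaks were matched to the full GENCODE annotation with a minimum overlap of 1 bp in Python 3.11.15 with numpy 2.4.6 and matplotlib 3.10.9. Promoters were 2000 bp to either side of any start site, and exons of coding transcripts were excluded from introns. Counts per library were tested with two-sided exact permutation tests. Calls were tested on simulated data. Named genes were a set of 12 stromal and basement membrane collagens, the 6 members with the highest pooled PBRM1 value among promoter sites found in all replicates, and the intronic sites with the highest pooled BRG1 value under the same condition or in BRG1 alone. Col10a1 and Col9a1 were named for having no promoter peak, and single genes outside these rules were chosen after their values were seen, as was the merging of promoter peaks into sites. The collagen family and the lists were picked with earlier results of these data known, although the rule for members reads symbols alone.

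Alternatives were a −log10 q cutoff of 5, the 10000 strongest peaks per list, other promoter distances and start sites, other intron definitions, type IV as the sole basement membrane class, a replicate block and each replicate left out.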

Additional observations from a re-analysis of the deposited data

How the results depend on the processing

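No control library entered the peak calls, and with 3 libraries per antibody no exact permutation test could fall below 0.1. The difference in members with a promoter peak (PBRM1 minus BRG1) was 2.33 among the 10000 strongest peaks of each list, a turned direction, and ranged from −10.7 to −4.67 with each replicate left out. The difference in intronic peaks ranged from −48.2 to −36.2 with each replicate left out, and it was −0.333 among the 10000 strongest peaks. At a −log10 q cutoff of 5, members with a promoter peak in all 6 replicates numbered 6, and pooled intronic peaks 65 for PBRM1 and 133 for BRG1. No value over all protein-coding genes is given at this cutoff or among the 10000 strongest peaks. These changes in count therefore have no background to be set against. Members with a promoter peak in every remaining replicate numbered 11 to 23, with 23 without PBRM1 replicate 3. Other promoter distances and start sites, other intron definitions and, added after seeing the data, exons of all transcripts kept the direction of both differences and kept the pooled counts within 1.5 times. At the −log10 q cutoff of 5, basement membrane introns had a mean of 1.95 BRG1 peaks per 100 kb. Fibrillar collagens had 0.678 and other collagens 0.687. At the main cutoff, type IV alone as basement membrane had 3.10, where the full class had 3.63. The cause of these changes was not tested.

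Same-numbered PBRM1 and BRG1 libraries did not deviate together. At 12814 peaks found in all 6 replicates, the deviations in fold enrichment of same-numbered pairs correlated at −0.0376, −0.00989 and −0.00987. With the replicate number as a block, the differences were −8.33 members and −42 intronic peaks, each with an exact sign-flip p of 0.25, the smallest that 3 pairs allow.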
